A study of Homo sapiens with 3 samples.

Results

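MECOM, also called EVI1, MDS1-EVI1 or PRDM3, is a zinc finger transcription factor of blood stem cells that is expressed at high levels in a group of myeloid leukaemias. The regions described here are the peaks of a ChIP-seq experiment that lay within the MECOM gene itself. They were chosen by position alone: every peak on chromosome 3 that overlapped the RefSeq span of MECOM, from 169083507 to 169663712 on the hg38 build, was taken. This gave 5 of the 3462 peaks in the list. The deposited table ties peaks to the nearest gene start and gives the symbol MECOM in 0 of its rows. None of the 5 could therefore have been found by that symbol, although 1 of them carries the symbol MECOM-AS1.

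The experiment precipitated MECOM by way of the AM tag, a peptide fused to the protein for which an antibody is sold, in HEK293T cells, an established human embryonic kidney line. The 3 groups were cells given the pMYS-IG vector (Vector), tagged wild-type MECOM (WT) and tagged MECOM carrying the R750W change (R750W), with 1 library in each, and all 3 were precipitated with the same antibody. A DL/AS mutant that the series' description mentions was not analysed here. The list examined here carries the name of the WT group, and those of Vector and R750W were not analysed here, so no difference between groups was tested and no value has a replicate. The WT group was given a MECOM sequence in addition to the gene on chromosome 3, by transduction in the series' description and by transfection in the extraction protocol, and the share of cells that took it up was not measured here. A peak list holds no expression values, so the cell line label was not checked against marker genes.

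MECOM proteins bind DNA through a pair of separate zinc finger domains. The gene is read from more than one start: transcripts from the outer start can encode the long MDS1-EVI1 form with a PR domain, whereas transcripts from starts far inside the gene encode the shorter EVI1 form, which lacks it. The gene lies on the minus strand, so its outer start is at the high end of the coordinates and its 3′ end at the low end. RefSeq start windows on GRCh38.p14 (250 bases before to 50 after a start) placed the outer start of MECOM at 169663712 and the inner ones at 169147471 and 169146539, which are 932 bp apart. The inner pair lies 516241 and 517173 bp from the outer start in the direction of transcription.

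Of these 3 start windows, 1 was overlapped by a peak, that of the inner start at 169147471. The sequence before this start and, for comparison, that before the outer start are shown because the first lies largely under a MECOM peak and the second does not. Both read 5′ to 3′ on the minus strand of GRCh38.p14 and end at the base before the start, and capitals mark bases inside a peak of the WT list.
Inner start, chr3:169147472-169147721: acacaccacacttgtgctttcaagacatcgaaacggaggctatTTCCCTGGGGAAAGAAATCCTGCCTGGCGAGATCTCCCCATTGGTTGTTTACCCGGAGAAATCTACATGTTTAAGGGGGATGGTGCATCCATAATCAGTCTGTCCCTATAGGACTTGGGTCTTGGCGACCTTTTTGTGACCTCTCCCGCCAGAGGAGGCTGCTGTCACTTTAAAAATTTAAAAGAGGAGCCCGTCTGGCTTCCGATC
Outer start, chr3:169663713-169663962: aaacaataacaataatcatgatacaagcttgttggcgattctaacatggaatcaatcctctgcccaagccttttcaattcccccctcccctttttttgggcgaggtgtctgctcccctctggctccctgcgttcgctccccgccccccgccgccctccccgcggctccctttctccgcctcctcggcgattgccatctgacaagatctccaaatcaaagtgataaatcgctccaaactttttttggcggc
Of the 250 bases before the inner start, 207 (82.8%) lay in the peak, and of those before the outer start 0 did.

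The 5 peaks are called A to E here, in order of rising coordinate, that is from the 3′ end of the gene towards its outer start. Their height is given as the fold enrichment in the deposited table, the ratio of fragments at the top of the peak to the local background, each with 1 added. Whole numbers of fragments were recovered from the deposited fold and p-value, and every interval is an exact 95% Poisson interval of those fragments with the background held fixed. Such intervals cover counting error only.

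**Figure D1:**
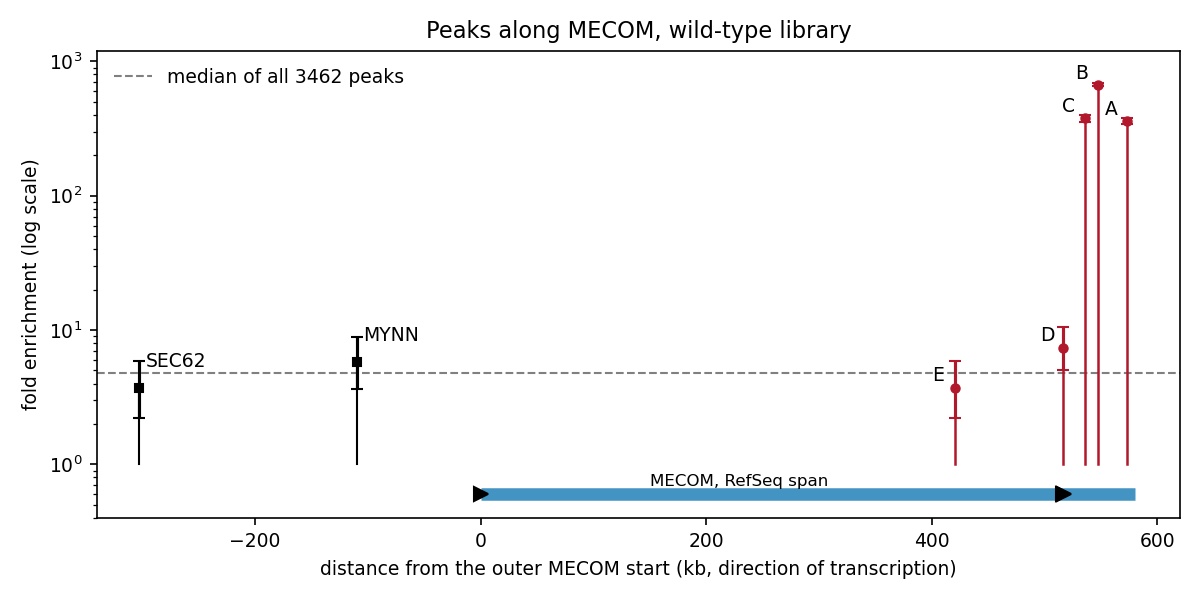
Fold enrichment (log scale) of the 5 MECOM peaks (circles, A to E) and of the peaks at MYNN and SEC62 (squares) against distance in kb from the outer MECOM start, with exact 95% Poisson intervals. The bar is the RefSeq span, triangles are RefSeq starts (the inner pair overlap at this scale), and the dashed line is the median of all peaks, 4.82. Peaks A, B and C stand at 360, 669 and 378-fold near the 3′ end, and D and E at 7.40 and 3.73.

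Peak A, the closest to the 3′ end, ran from 169089974 to 169090264 and was 291 bp wide. At its top 1425 fragments stood against an expected 2.96, which gave a fold of 360 (341 to 379). It began 6467 bp inside the 3′ end of the gene span.

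Peak B ran from 169115354 to 169116752 and was 1399 bp wide. At its top 5397 fragments stood against an expected 7.06, which gave a fold of 669 (652 to 688). It was first in the list by fold, by fragments and by −log10 q.

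Peak C ran from 169127807 to 169128084 and was 278 bp wide. At its top 1048 fragments stood against an expected 1.78, which gave a fold of 378 (355 to 401). The interval of B lay wholly above those of A and C, at 1.86 and 1.77 times their fold. Those of A and C overlapped, and a difference between their folds was not tested. The order of A and C depended on the measure. C came second in the deposited fold, but A was second by fragments, with 1.36 times as many, and by −log10 q (3202 for A and 2447 for C). The lower background under C gave it the higher fold.

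Peak D ran from 169147164 to 169147678 and was 515 bp wide. At its top 28 fragments stood against an expected 2.92, which gave a fold of 7.40 (5.00 to 10.6). D is the peak that contains the inner start, with 207 of its bases before the start and 308 from the start onwards. The other inner start lay outside it, 625 bp beyond its edge.

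Peak E ran from 169242480 to 169242758 and was 279 bp wide. At its top 16 fragments stood against an expected 3.56, which gave a fold of 3.73 (2.23 to 5.92). Of all peaks in the list, 30 shared exactly this fold and fragment count, E among them. E lay inside a second annotated gene, the long non-coding RNA LOC124909454 on the plus strand (169242061 to 169247646), and began 419 bp past its start. The deposited table instead gave E to MECOM-AS1, an antisense RNA gene whose start is 205387 bp away. Antibody enrichment has no strand, so a position alone does not say which of the overlapping genes a peak belongs to.

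The table gave peaks A to D to ENSG00000241383, a gene with no symbol there that lies below MECOM and within the RefSeq span of LINC01997. The distances it lists from that gene's start were 86900 bp for A, 112280 for B, 124733 for C and 144090 for D. Each was shorter than the distance to the outer MECOM start, which ran from 516034 bp for D to 573448 bp for A. RefSeq start windows, which include inner starts, put MECOM's own inner starts nearest to B (29787 bp), C (18455 bp) and D (0 bp). For A the nearest start was that of the non-coding gene LOC107986051, at 25781 bp.

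The heights fell into separate ranges. A, B and C exceeded 100-fold, and by the deposited fold they were the only peaks of the list to do so (0.0867% of all peaks). The highest peak elsewhere lay inside the gene CDKAL1 on chromosome 6, from 20835230 to 20836011, and was annotated as upstream of ENSG00000233848. It reached 21.1-fold (16.1 to 27.3) from 56 fragments, and 0 peaks lay between it and A. The next was a peak inside the gene ADGRL2 on chromosome 1, from 81874361 to 81874978, at 19.1-fold (14.3 to 24.9). After it came the one across the start of SERINC1, a membrane protein gene, at 15.5-fold (11.3 to 20.8). D was 190th by fold. Its interval lay just above the median of the list, 4.82, as did those of 5.46% of all peaks, and it overlapped the intervals of 94.1% of the peaks elsewhere. E was 2921st, with an interval that included the median.

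**Figure D2:**
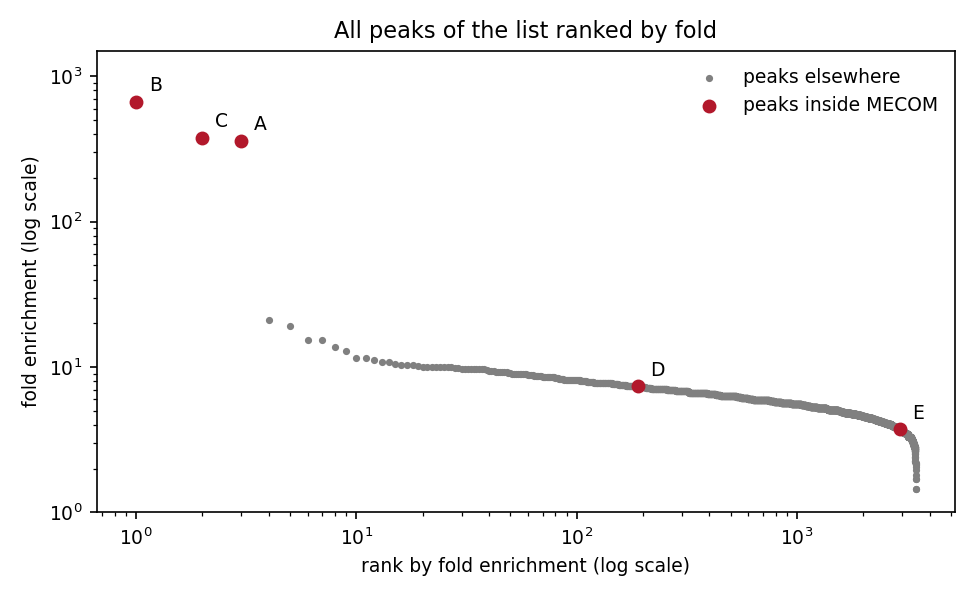
Fold enrichment against rank for all 3462 peaks, both on log scales, with the MECOM peaks in red. B, C and A take ranks 1 to 3, the peaks elsewhere begin at 21.1-fold, and D and E lie on the curve formed by the other peaks.

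By number of fragments the 3 peaks were again the highest, but the distance to the rest was smaller. The most fragments elsewhere, 497, lay at a peak on an unplaced sequence where the background was 275, so its enrichment was 1.81-fold. B held 10.9 times as many fragments as that peak, compared with a ratio of 31.7 by fold. All 15 peaks elsewhere with over 100 fragments had a background of at least 29.1 and an enrichment of at most 4.82-fold. Among the 3277 peaks elsewhere with a background no higher than that of B, the most fragments were 69, at a peak on chromosome 13 with 15.4-fold enrichment. A, B and C held 20.7, 78.2 and 15.2 times that number. Together they held 7870 of the 77915 fragments counted at the tops of all peaks (10.1%).

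**Figure D3:**
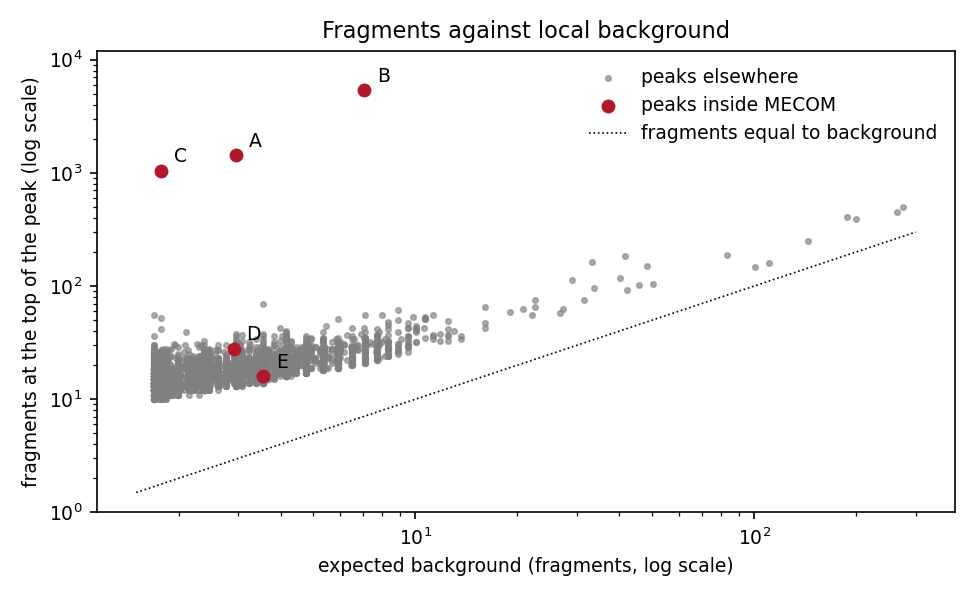
Fragments at the top of each peak against its expected background, both in fragments on log scales, with the line of equality dotted. Peaks elsewhere with over 100 fragments had backgrounds of 29.1 or more, whereas A, B and C had 1048 to 5397 fragments over backgrounds of 1.78 to 7.06.

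The backgrounds under the peaks were not alike. That of B was higher than at 94.8% of the peaks in the list, that of A higher than at 55.8% and that of C higher than at 16.0%. For D and E the shares were 49.7% and 71.6%. The list's median background was 2.92 fragments, with quartiles of 2.0 and 3.99. Set to that background, the folds became 364 for A, 1378 for B and 268 for C, which moves B further from the other two and puts A above C. At that setting 3 peaks elsewhere also passed 100-fold, up to 127-fold, at sites whose own background was at least 189 fragments and whose deposited fold was at most 2.17. The sources used here do not give the library from which the background was taken.

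Width did not follow height among these peaks. A and C were among the narrowest in the list, where the lowest width was 260 bp and the median 414 bp: 13.9% of peaks were narrower than A and 8.29% narrower than C. E, with 16 fragments, was almost the same width as C, with 1048. The 492 peaks elsewhere that were no wider than A had a median enrichment of 4.61-fold and a highest of 8.59-fold. B was the 39th widest. The 38 peaks elsewhere at least as wide as B had enrichments of 2.73 to 9.30-fold with a median of 6.13, and none held more than 62 fragments. The widest of all, on chromosome 9 from 40598409 to 40601313, measured 2905 bp and reached 8.79-fold (5.85 to 12.7).

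**Figure D4:**
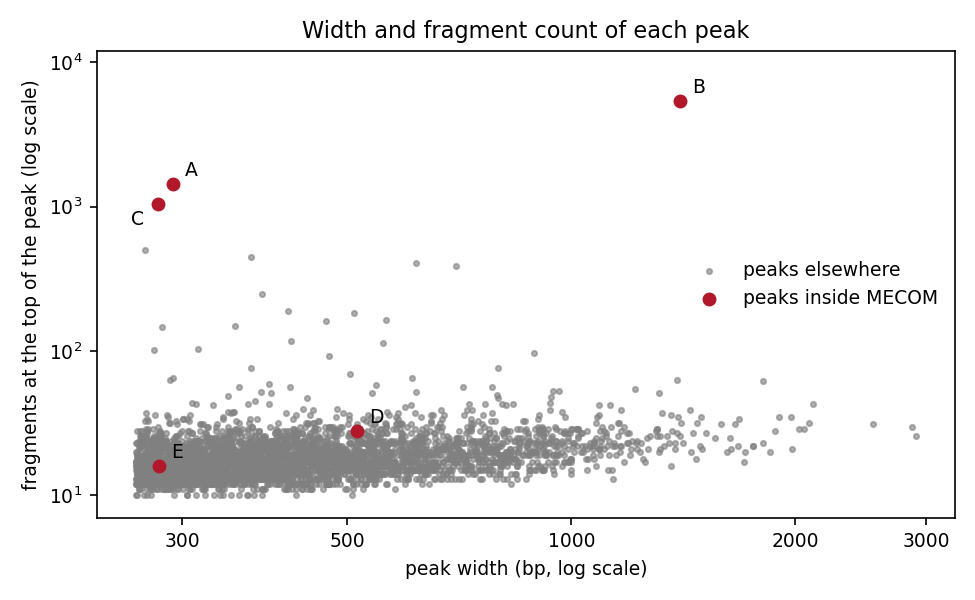
Fragments at the top of each peak (log scale) against its width in bp (log scale). A and C combine widths of 291 and 278 bp, near the minimum of 260, with 1425 and 1048 fragments, B is 1399 bp wide with 5397 fragments, and D and E lie among the other peaks.

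The peaks were gathered at one end of the gene. A, B and C lay within 38111 bp, 6.57% of the span, and all 3 were within the 63965 bp (11% of the span) between the inner start under D and the 3′ end. This is the part of the gene that transcripts from the inner starts can cover. The gaps were 25089 bp from A to B, 11054 bp from B to C, 19079 bp from C to D and 94801 bp from D to E. From E to the outer start, 420954 bp (72.6% of the span) held no peak. The 5 peaks together covered 2762 bp, or 0.476% of the gene. Exon positions of MECOM were not used, so exonic and intronic bases under the peaks were not separated. The part of introduced MECOM DNA in the counts at A, B and C was not tested.

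Close spacing was seen elsewhere without such heights. On chromosome 3 the median gap between neighbouring peaks was 453353 bp over 206 gaps, and 12.6% of the gaps were shorter than that from A to B. Over the assembled chromosomes, 45 of 3347 runs of 4 successive peaks (1.34%) were no longer than the 57705 bp from A to D, and 1 of them was this one. The highest peak in the other 44 runs reached 8.58-fold.

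Few genes held as many peaks. MECOM spans 580206 bp, and of 20033 protein-coding genes on the assembled chromosomes 2 had 5 or more peaks in their span (0.00998%), MECOM and PCDH9, a protocadherin gene of 927503 bp with 6. At least 1 peak was found in 11.4% of such genes. Next came ADGRL2, an adhesion receptor gene, SRGAP2C and TLE4, a corepressor gene, with 4 each. Among the 146 genes of 500 to 700 kb, 92 had no peak, 47 had 1 or 2, 6 had 3 or 4, and MECOM was the 1 with 5 (0.685%). The best peak of the other genes of this length that had one was 5.15-fold in the median and at most 21.1-fold, in CDKAL1. PCDH9 reached 7.67-fold at most, close to the height of D.

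**Figure D5:**
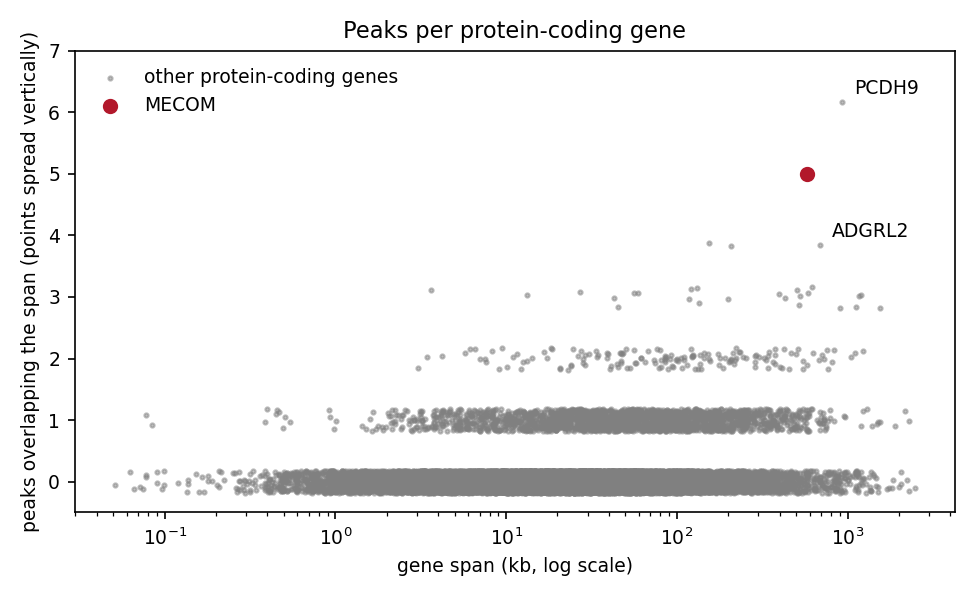
Number of peaks overlapping each protein-coding gene against the length of its span in kb (log scale), with small vertical scatter to separate points. MECOM (red, 580206 bp) has 5 peaks, PCDH9 has 6 and ADGRL2 has 4, and most genes have 0.

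At the starts of MECOM the picture was uneven. The outer start had no peak in its window, and the nearest one was 109393 bp away, at MYNN. Over the whole of RefSeq, 4.45% of the 35116 start windows and 5.69% of those of protein-coding genes were overlapped by a peak, so a window without one is the usual case. Of the peaks, 1159 (33.5%) lay over a start window, D among them. Those 1159 had a median enrichment of 4.79-fold, quartiles of 4.04 and 5.71, and a highest of 15.5-fold. D was higher than 94.7% of them and, at 515 bp, wider than their median of 453 bp. With 28 fragments, compared with a median of 19, D differed from a typical start peak by few counts.

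A peak at an inner start only was rare among genes with far-apart starts, as were peaks at start windows in general. Of all start windows 4.45% had a peak, and of those of protein-coding genes 5.69%. These are shares of windows, whereas the share that follows is of genes, so they are not like measures. RefSeq gives 376 protein-coding genes an inner start over 100 kb from the outer one. In 13 of them (3.46%), MECOM included, such an inner start had a peak and the outer did not. In 42 the outer start had a peak, and in 310 no start did. Among all 4040 genes with 2 or more start windows, 182 had a peak at an inner start only, 143 at the outer start only and 108 at both.

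Motifs were searched on both strands of the 250 bases before each MECOM start, and the share of all 35116 RefSeq sequences of this length that hold a match is given beside each. The core of the site described for the first zinc finger domain of MECOM, GACAAGAT, was found in 0.447% of the sequences. Followed by AA, as in the longer form of that site, it was found in 0.0427%. The site described for the second domain, GAAGATGAG, was found in 0.265%. The GATA-type site AGATAA, which overlaps the end of that longer form, was found in 9.17%. The site CCGGAAG, of a kind bound by ETS factors, was found in 8.52%. The AP-1 site TGANTCA was found in 6.57%. The sequence before the inner start, under D, matched none of these 6. No match says only that these letters are absent from this window, and 308 of the 515 bases of D lie from the start onwards and were not searched. Peaks A, B, C and E lie outside the searched sequences, so no motif was sought in them. The sequence before the outer start held the core of the first site once, 45 bp before the start, within ttgccatctGACAAGATctccaaatc (capitals mark the match). The other inner start, outside D, had the reverse complement of the GATA-type site 24 bp before it, within ccctgctgcTTATCTacgttgcta. Neither match lay in a peak. G and C made up 49.6% of the bases before the inner start, and 53.6% of those before the outer start, compared with a median of 58.0% over all such sequences and 66.4% over those whose window had a peak.

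The 4 peaks within 1 Mb of MECOM had enrichments of 3.73 to 6.91-fold. Of the 15 neighbours in that range, which are 14 protein-coding genes and TERC, the gene of the telomerase RNA, 2 had a peak within 1000 bp of their span. This share is near that of all protein-coding genes, 13.7%. MYNN, a zinc finger gene, had one at its start, from 169773105 to 169773731, at 5.82-fold (3.66 to 8.83) with 20 fragments. SEC62, a gene of protein import into the endoplasmic reticulum, had one from 169966319 to 169966677 at 3.73-fold (2.23 to 5.92) with 16 fragments, the same values as E. No peak was listed at TERC, ACTRT3, LRRC34, LRRIQ4, LRRC31, SAMD7, GPR160, PHC3, PRKCI, SKIL, CLDN11, SLC7A14 or GOLIM4. On the side of the 3′ end the nearest peak was 832646 bp from the gene, from 168250424 to 168250861, at 6.91-fold (4.56 to 10.1), and beyond it lay one from 168248787 to 168250088 at 4.33-fold (2.95 to 6.16). The intervals of these peaks overlapped those of D, and all lay far below those of A, B and C. Chromosome 3 held 207 peaks, and outside MECOM the highest of them reached 11.1-fold.

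Other genes tied to MECOM were also looked up in the list, where no peak outside MECOM exceeded 21.1-fold. Of 8 genes described in earlier work as its targets, 2 were assigned a peak, beside 9.76% of all protein-coding genes. The list is short and was chosen with results of these data known, so the share is a description. GATA2, a transcription factor of blood stem and mast cells, had a peak 2819 bp upstream of its start at 6.40-fold (4.29 to 9.20). FOS, an AP-1 subunit gene, had one 1734 bp upstream at 6.54-fold (4.07 to 10.0). A peak within 1000 bp of SPI1, the gene of the myeloid factor PU.1, was assigned to MYBPC3 and reached 4.85-fold (3.18 to 7.13). CEBPA, ITGA6, ADGRG1, BCL2L1 and ZBTB16 had none. PRDM16, the closest relative of MECOM in the PRDM family, had no peak assigned and none within 1000 bp of its span.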

How the data were processed

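The single file used was the deposited annotated peak table named for the WT group. Without a header, column contents were inferred from the numbers they hold. HOMER 4.10, ChIPseeker 1.18.0, Bowtie2 2.4.2, deepTools and MACS2 2.1.1.20160309.6 are listed with no role, and hg38 as the build, per the submitters' processing notes. The fold (a ratio) and the −log10 p and −log10 q of each peak were deposited by the authors, and the deposited score is 10 times the −log10 q cut to a whole number, in each of 3465 rows. These are the authors' own values and were used only within this list. Of the rows, 3 repeat a peak with another gene. The number of value columns without a group was 0.

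For each peak, a whole fragment count and a background were sought that satisfied both deposited values: the fold, as their ratio after adding 1 to each, and the −log10 p, as a Poisson tail (tolerance 0.001, or a relative 1e-05 for values above 1000). A single solution was found for all 3462 peaks, and in simulation for 300 of 300 ordinary peaks and 20 of 20 with fragment counts in the range of peaks A to C. The sources used here do not state the total reads. The median was 18 fragments per peak.

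Gene spans, start windows and sequences came from RefSeq on GRCh38.p14; MECOM matched by symbol, with 3 windows. Any overlap of at least 1 bp counted. There was no test, since 1 list has no replicate. Named genes were fixed by rule: MECOM, the genes assigned to its peaks, neighbours within 1 Mb, the 3 highest and the widest peak elsewhere, the genes with most peaks, PRDM16 and a list of described targets, of which 8 are reported here. Members and lists were chosen with earlier results of these data known. The short motif GACAAGAT, start windows, width and run comparisons were added after the values were seen. Alternatives were a q of at most 1e-05, other spans, thresholds and backgrounds. Python 3.11.15, pandas 2.3.3, numpy 2.4.6, scipy 1.17.1 and matplotlib 3.10.9 were used.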

Additional observations from a re-analysis of the deposited data

How the results depend on the processing

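The count of 5 peaks inside MECOM was 4 at a q of at most 1e-05, which leaves out E, and 5 with peaks required to lie wholly inside the span or with the span widened by 10 kb. The count of 3 over 100-fold was 3 with a threshold of 50-fold and at the stricter q. With the median background of the list it was also 3, but 3 peaks elsewhere then passed 100-fold as well. The ratio of B to the highest peak elsewhere, 31.7 by fold, was 10.9 by fragments and 10.8 with the median background, where the peak elsewhere is the one with a background of 275, and 60.2 against chromosome 3 only. The settings for starts under a peak were chosen after seeing the data: the count of 1 was 1 for the start base itself and at the stricter q, and 2 within 1000 bp, since the other inner start lies 625 bp from D. No paired analysis was possible because the 3 groups hold 1 library apiece and only the WT list was examined. Depth, at 28 and 16 fragments, limits the ranking of D and E.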
